A study of Mus musculus with 8 samples.

Results

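The late response of mouse bone marrow-derived dendritic cells (BMDCs) to an *Echinacea purpurea* extract is given by 4 arrays of 8 in all: 2 hybridized with RNA of DCs kept for 12 h with [BF/S+L/Ep], and 2 with RNA of DCs kept for 12 h with the vehicle. They were chosen by their titles, and the contrast used here is treated minus vehicle at 12 h, over all 45037 probe sets that are not array controls. [BF/S+L/Ep] is a chemically defined fraction of the plant, given at 75 μg/mL in DMSO, and the control cells received 0.1% DMSO alone. The other 4 arrays hold the same 2 treatments at 4 h, again with 2 arrays each. All cultures came from bone marrow of 6-week-old female BALB/c mice and were grown for 9 days with 200 U/mL GM-CSF, as the sample labels give it, so treated and control cells alike are GM-CSF-grown immature DCs without LPS. The study treats the 2 arrays of a group as biological replicates from independent experiments, and whether these used separate mice is not given in its text, so the p-values measure the spread between these arrays.

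DCs show antigens to T cells, and GM-CSF cultures of bone marrow are a common model of them that also holds macrophage-like cells. Their secreted chemokines draw in other leukocytes: CXC chemokines with the ELR motif act mainly on neutrophils, while many CC chemokines act on monocytes, DCs and T cells. Interferons made by such cells signal through a receptor, STAT proteins and IRF9 to a shared set of antiviral genes. Plant polyphenols are known to touch 2 other sensors, the aryl hydrocarbon receptor (AhR) and the oxidant sensor NRF2.

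Values are MAS5 signals on the linear scale, scaled by the authors to a trimmed mean of 500 on each array. Differences are on the log2 scale and were tested with limma, two-sided, with Benjamini-Hochberg adjustment over all 45037 probe sets, and a gene passed at an adjusted p under 0.05. Background was judged on each array by 86 probe sets of odour, pheromone and taste receptor genes, which DCs are not known to use, with their 95th percentile as the reference. At 12 h it was 106.5 and 79.5 on the DMSO arrays and 75.1 and 75.6 on the treated arrays, and the median signal was 103.7 on DMSO replicate 1 against 87.3 to 90.8 on the other 3. Conventional DC markers were present, with none of 12 genes under the reference. Their summed signal lay between 263318 and 279634 on the DMSO arrays and between 253060 and 264047 on the treated arrays. Of 11 measured macrophage genes 10 were above the reference too, so these markers do not separate DCs from the macrophage-like cells of such cultures. With bulk RNA, fewer cells of a type and less RNA per cell cannot be told apart.

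At 12 h, 7 probe sets of 6 genes were higher after treatment (0.0155% of all probe sets) and 2 lower (0.00444%). The higher genes encode a collagenase (*Mmp8*), 2 CXC chemokines (*Ppbp* and *Cxcl2*), a dynein heavy chain (*Dnah2*), a surface protein of progenitor cells (*Plet1*) and the substrate receptor of a ubiquitin ligase (*Asb2*). The lower genes encode a lectin receptor (*Clec10a*) and a secreted protein (*Retnla*) that both mark alternatively activated cells. On each of the 8 arrays these 9 probe sets exceeded the reference. Without an adjustment, 1179 probe sets were higher (2.62%) and 1505 lower (3.34%) at a p under 0.05, 2684 in all where chance gives 2252.

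**Figure D1:**
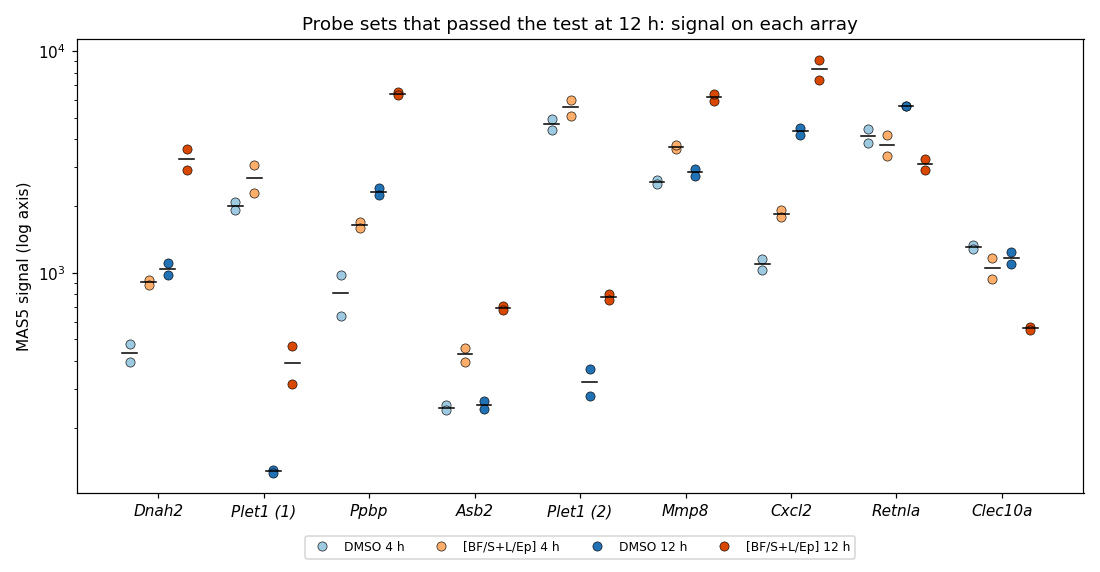
MAS5 signal (y axis, log scale) of the 9 probe sets with an adjusted p under 0.05 at 12 h, each array as a point and each pair's mean as a bar, coloured by treatment and time. At 12 h the treated arrays stand apart from the DMSO arrays in every case, while *Plet1* is far brighter at 4 h (4414 to 6021 at the brighter probe set) than at 12 h (276.9 to 806.2).

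*Mmp8*, which encodes neutrophil collagenase, an enzyme that cuts fibrillar collagen, read 2937 and 2741 on the DMSO arrays and 5975 and 6420 on the treated arrays at 12 h. The treated signals were thus about double those of the controls and the replicates lay close together. The ratio of the mean signals was 2.18 and the log2 difference was 1.13 ± 0.10 (SE, adjusted p = 0.00125, limma). At 4 h the same probe set read 2609 and 2527 in the controls and 3608 and 3753 after treatment, so the 4 h groups did not overlap either, with a smaller log2 difference of 0.52. In the vehicle alone the gene moved little between the times, with a log2 difference of 0.14.

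*Dnah2*, which encodes an axonemal dynein heavy chain, a motor protein of cilia and flagella, read 979.4 and 1107 in the controls and 2913 and 3609 after treatment (ratio 3.13, log2 difference 1.64 ± 0.15, adjusted p = 0.00125). Both treated arrays were far above both controls, and this was the largest log2 difference among the 9 probe sets. Its other probe set was under the reference in both groups. *Dnah2* also rose with time in vehicle-treated DCs, by 1.26 on the log2 scale (adjusted p = 4.42e-04). Of 36 actin and microtubule genes above the reference, *Dnah2* and the myosin gene *Myo1f* (log2 difference 0.23, adjusted p = 0.836) were higher at an unadjusted p under 0.05, a share near that of all genes (3.52%), and 0 were lower.

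*Asb2* stood at 263.1 and 243.0 in the controls and at 710.8 and 682.6 in treated DCs (ratio 2.75, log2 difference 1.46 ± 0.19, adjusted p = 0.024). The ASB2 ligase is known to direct filamins to the proteasome. Its partners and substrates on the arrays showed no difference of that size, with *Flna*, the filamin A gene, at a log2 difference of 0.17 (adjusted p = 0.904) and *Cul5*, the cullin of the complex, at -0.13 (adjusted p = 0.982). Vehicle-treated DCs gave nearly the same *Asb2* signal at both times, 252.0 and 239.2 at 4 h, and treated DCs at 4 h lay in between at 397.7 and 459.9.

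*Plet1* passed at 2 of its 3 probe sets, and its other was under the reference in both groups. The brighter read 276.9 and 367.7 in the controls and 806.2 and 750.5 after treatment (ratio 2.41, log2 difference 1.29 ± 0.15, adjusted p = 0.0099). Between 4 h and 12 h this probe set fell in vehicle-treated DCs (log2 difference -3.87, adjusted p = 6.39e-08), so the treated cells at 12 h were above their controls but far below either group at 4 h. Its treatment difference at 12 h was larger than that at 4 h by 1.04 ± 0.21 on the log2 scale, which did not pass over all probe sets (adjusted p = 1).

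The chemokine genes divided by family. Of 13 CXC chemokine genes above the reference, 6 were higher at an unadjusted p under 0.05 and 0 were lower, against 3.52% and 4.19% of the 11104 genes whose brightest probe set exceeded the reference on 2 or more of these 4 arrays, and 2 of the 6 passed the adjusted test. The median log2 difference of the family was 0.34, against -0.02 over those 11104 genes. Of 13 CC chemokine genes, 0 were higher and 2 were lower, with a median of -0.24 and a negative difference at 12 of 13. With each array centred on its median, 9 of the 13 CC chemokine genes were negative and 1 was lower at that p, and the CXC count was 7, so the CC direction leaned on the scaling more than the CXC direction. No direct test compared the families.

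*Ppbp*, which encodes the CXCL7 precursor, a chemokine known from platelets, read 2405 and 2233 in the controls and 6542 and 6306 after treatment (ratio 2.77, log2 difference 1.47 ± 0.16, adjusted p = 0.00853). *Cxcl2*, a neutrophil attractant, read 4493 and 4202 against 9162 and 7400 (ratio 1.9, log2 difference 0.92 ± 0.12, adjusted p = 0.0276). In both genes the lowest treated array was above the highest control, by a wide margin. *Cxcl13*, the B cell attractant, was at 1588 and 1562 in the controls and 3072 and 2600 after treatment, and missed the test (log2 difference 0.84, adjusted p = 0.101). *Cxcl3*, a close relative of *Cxcl2*, was at 6333 and 4752 against 10316 and 8535 (0.77, adjusted p = 0.113). *Cxcl10*, an interferon-induced attractant of T cells, had a log2 difference of 0.59 (adjusted p = 0.658), and *Pf4*, the platelet factor 4 gene, one of 0.34 (adjusted p = 0.790).

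The genes of the ELR chemokines lie in a cluster on chromosome 5 (GRCm38.p6) that also holds *Pf4*, whose product lacks the motif. It runs from *Cxcl5*, which starts at position 90759298, through *Ppbp* (90768518), *Pf4* (90772435), *Cxcl3* (90786101) and *Cxcl1* (90891245) to *Cxcl2*, which ends at 90905938. The genes of this cluster did not share one size of response. *Cxcl1*, between *Cxcl3* and *Cxcl2*, was at 687.1 and 584.1 in the controls and at 828.9 and 643.4 after treatment, groups that overlapped (log2 difference 0.21 ± 0.18, adjusted p = 0.927). *Cxcl5* was under the reference on both control arrays (63.2 and 77.1) and at 285.7 and 171.2 after treatment, at least 2.4-fold higher, with an adjusted p of 0.837. Of the 13 CXC genes, 8 also rose with time in vehicle-treated DCs (2.94% of all genes above the reference did), among them *Cxcl2* by 1.99 and *Ppbp* by 1.55 on the log2 scale.

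Upstream sequence is shown for *Cxcl2* and *Cxcl3*, whose promoters hold the same κB-like run, GGAATTTCC, marked in capitals below. The sequences are from RefSeq (GRCm38.p6), 60 bases on the plus strand at chr5:90903777-90903836 and chr5:90786003-90786062, which begin 122 and 98 bases before the start of the gene.
Cxcl2: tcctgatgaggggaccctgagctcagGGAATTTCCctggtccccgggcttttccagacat
Cxcl3: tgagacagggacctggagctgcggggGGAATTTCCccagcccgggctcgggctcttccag
Read on both strands over 250 bases before to 50 after the start, this motif was found at 0.38% of 27025 genes with a window. Of the 6 CXC genes that were higher at an unadjusted p under 0.05 it was found at 3 (*Cxcl2*, *Cxcl3* and *Cxcl10*), and of the 4 others with a window at 1, *Cxcl1*. A match describes the letters only and shows no binding, and these motifs were picked with the results known.

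**Figure D2:**
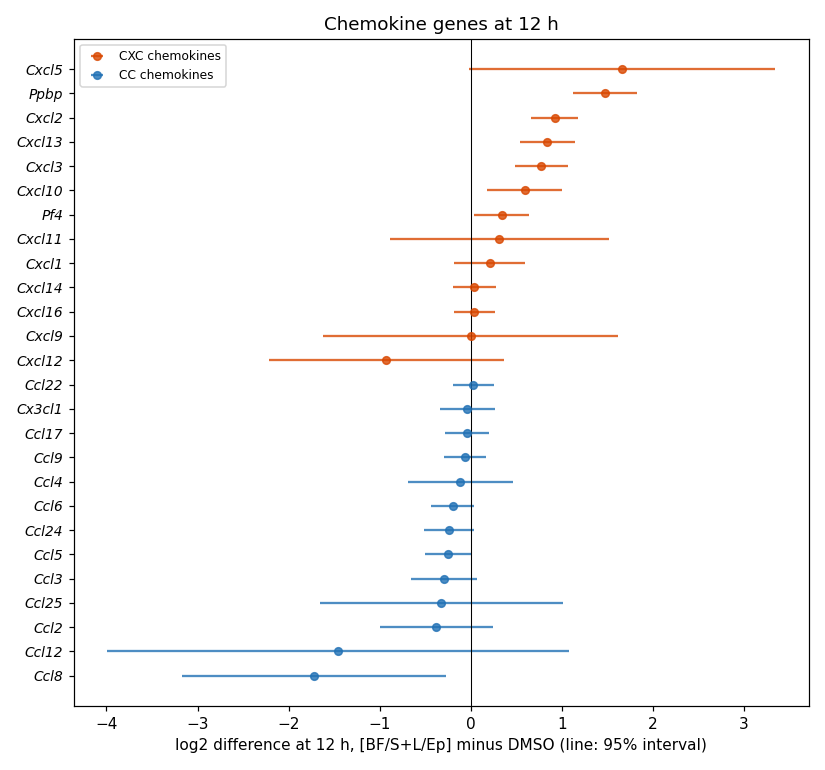
Log2 difference at 12 h, [BF/S+L/Ep] minus DMSO (x axis), of 13 CXC and 13 CC chemokine genes (y axis), with the 95% interval of each as a line. Of the 13 CXC genes 11 lie right of 0 and of the 13 CC genes 12 lie left of it, and the points of *Cxcl5* and *Ccl8*, each with one group under the background reference, are not exact sizes.

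Among the CC chemokines, *Ccl22*, an attractant of regulatory and helper T cells that DCs make in large amounts, read 23832 and 26408 in the controls and 25294 and 25660 after treatment. *Ccl5*, an attractant of T cells and monocytes, read 22754 and 25576 against 20618 and 19944, lower on both treated arrays (log2 difference -0.25, adjusted p = 0.833). *Ccl8* was at 149.0 and 113.3 in the controls and at 24.1 and 64.3, under the reference, in treated DCs, at least 1.72-fold lower (adjusted p = 0.768). Of the receptors, *Fpr2*, which senses formyl peptides, read 10886 and 12172 against 15912 and 16152 and *Ccr2*, the receptor of CCL2 that guides monocytes, read 16869 and 17263 against 13400 and 13264 at its brightest probe set. Neither passed, with log2 differences of 0.48 (adjusted p = 0.216) and -0.36 (adjusted p = 0.685).

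The interferon-stimulated genes stood out in breadth rather than size. Of 27 members above the reference, 16 were higher at an unadjusted p under 0.05 and 0 were lower (3.52% and 4.19% of all genes), and 0 passed the adjusted test (limma). The median log2 difference was 0.39, and 25 of the 27 were positive. Both treated arrays were above both control arrays at 20 of the 27, where 16.7% of all genes above the reference had this order, and below them at 2, where 21.9% had that order. Under the 16 alternative settings the count at an unadjusted p under 0.05 lay between 9 and 16, with 0 lower, and the median between 0.35 and 0.46. Leaving out 1 array of 12 h at a time, which also leaves less data, it was 11 and 9 for DMSO replicates 1 and 2, and 11 and 10 for the treated replicates 1 and 2. At 4 h, when 2.64% of all those genes were higher and 2.33% lower at that p, the count was 4, with a median of 0.20 and 22 positive.

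*Usp18*, which encodes the protease that removes ISG15 and dampens interferon receptor signalling, read 1942 and 2064 in the controls and 2884 and 3317 after treatment (log2 difference 0.63 ± 0.11, adjusted p = 0.123). *Rsad2*, the gene of the antiviral enzyme viperin, read 871.6 and 1053 against 1516 and 1483 (0.65 ± 0.13, adjusted p = 0.205). These 2 genes had differences of the same size at 4 h, 0.63 and 0.68. Others were near level at 4 h: *Gbp2*, a guanylate-binding protein of the response to interferon γ, had 0.07 at 4 h and 0.47 at 12 h, and *Ifit3*, an antiviral RNA-binding partner, had -0.12 and 0.56.

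*Igtp*, an immunity-related GTPase, had the largest difference of the list, with 379.0 and 341.3 in the controls and 585.9 and 626.6 after treatment (log2 difference 0.75 ± 0.19, adjusted p = 0.441). The transcription factor genes *Irf9* and *Irf7* were higher on both treated arrays as well. *Irf9*, the DNA-binding subunit of the interferon-stimulated complex ISGF3, read 1046 and 1038 against 1390 and 1513, and *Irf7*, which drives interferon α genes, read 518.7 and 559.3 against 737.4 and 925.3. The list was not uniform. *Mx1*, the brightest member, read 12412 and 12902 in the controls and 12042 and 10630 after treatment, and *Bst2*, the tetherin gene, read 2463 and 2584 against 2296 and 2355, both lower on the treated arrays (log2 differences -0.16 and -0.12, adjusted p = 0.922 and 0.927). *Bst2* is known from plasmacytoid DCs too, whose defining gene *Siglech* was under the reference.

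**Figure D3:**
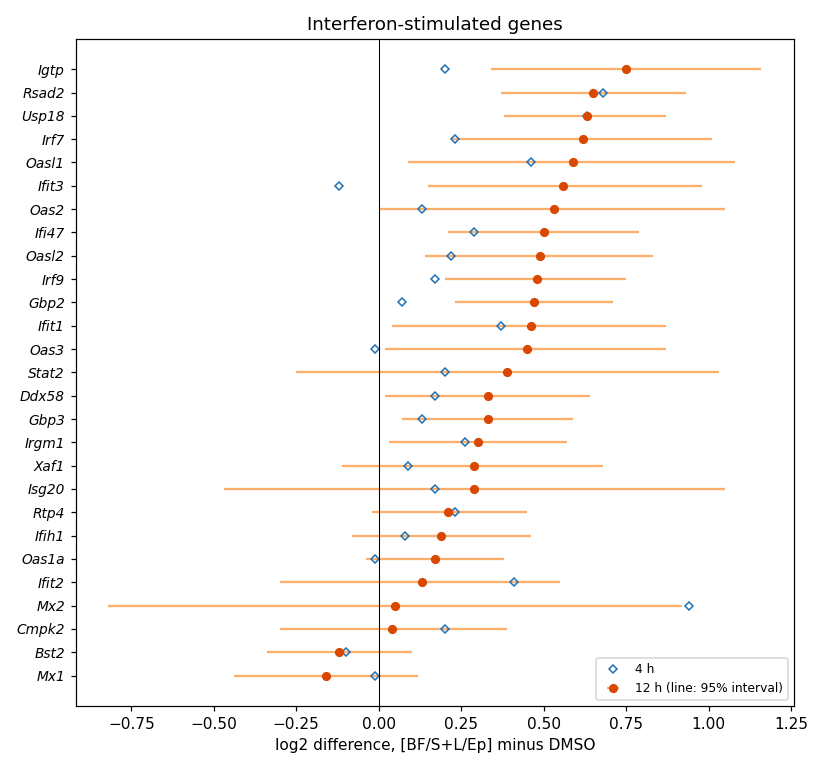
Log2 difference, [BF/S+L/Ep] minus DMSO (x axis), of the 27 interferon-stimulated genes above background (y axis), at 12 h as filled points with their 95% interval and at 4 h as open diamonds. The 12 h points run from -0.16 (*Mx1*) to 0.75 (*Igtp*), and 25 of 27 lie right of 0.

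The interferon-stimulated response element is a doubled GAAA, searched here as GAAANNGAAA on both strands in the same windows. It was found at 3.99% of 27025 genes, at 9 of the 14 interferon-stimulated genes with a window that were higher at an unadjusted p under 0.05, and at 4 of the 8 others with a window. For 5 genes that were higher, 60 bases upstream are shown with the matches on either strand in capitals, read 5′ to 3′ on the strand of the gene from RefSeq (GRCm38.p6), at chr12:26456538-26456597 (minus), chr3:142620579-142620638, chr11:58199496-58199555, chr19:34583365-34583424 and chr19:34640769-34640828 (all plus).
Rsad2: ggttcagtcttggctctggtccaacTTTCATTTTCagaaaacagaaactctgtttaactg
Gbp2: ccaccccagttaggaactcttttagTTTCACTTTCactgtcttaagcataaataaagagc
Igtp: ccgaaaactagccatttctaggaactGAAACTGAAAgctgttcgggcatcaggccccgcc
Ifit3: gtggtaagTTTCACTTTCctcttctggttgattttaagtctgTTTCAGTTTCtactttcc
Ifit1: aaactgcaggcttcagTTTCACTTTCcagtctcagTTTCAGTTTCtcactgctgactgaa
*Ifit3* and *Ifit1*, neighbours on chromosome 19, each hold 2 matches. *Ifit1* read 565.4 and 626.0 in the controls and 949.1 and 701.1 after treatment (log2 difference 0.46, adjusted p = 0.812), with a wider spread between the treated arrays than most of the list.

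Of 8 AhR target genes above the reference, 4 were higher at an unadjusted p under 0.05 and 0 were lower (3.52% and 4.19% of all genes). Their median log2 difference was 0.42. *Ahrr*, the repressor that AhR induces against itself, read 938.5 and 1012 in the controls and 1917 and 1596 after treatment, and narrowly missed the test (log2 difference 0.84 ± 0.13, adjusted p = 0.0681). *Tiparp*, a further feedback inhibitor of AhR, had 0.44 (adjusted p = 0.427), *Il1rn*, the gene of the IL-1 receptor antagonist, 0.40 (adjusted p = 0.691), and *Nqo1*, a quinone reductase that AhR and NRF2 share, 0.70 (adjusted p = 0.386). The classical targets *Cyp1a1*, *Cyp1a2* and *Aldh3a1*, which encode xenobiotic-metabolising enzymes, were under the reference, and *Cyp1b1*, a further enzyme of this kind, was under it in the controls (55.3 and 69.7) and at 132.2 and 85.9 after treatment (at least 1.16-fold higher, adjusted p = 0.896). At 4 h, *Ahrr* and *Tiparp* had larger differences, 1.22 and 0.81. Of the 8 genes, 7 were higher and 0 lower at that p at 4 h, when 2.64% and 2.33% of all genes were. The letters GCGTG, the core of the element that AhR binds, were in the promoter windows of *Ahrr*, *Tiparp* and *Il1rn*, but also of 35.15% of all 27025 genes and of 3 of the 4 AhR targets that were not higher.

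Of 25 NRF2 and antioxidant genes, 7 were higher at an unadjusted p under 0.05 and 0 were lower, while the median was only 0.03. Over all genes the shares were 3.52% higher and 4.19% lower, and 1.54% and 1.6% without the intensity trend. Both subunits of the enzyme that starts glutathione synthesis were among the 7. *Gclc*, the catalytic subunit, read 880.6 and 823.5 against 1459 and 1290 (log2 difference 0.69, adjusted p = 0.122), and *Gclm*, the modifier subunit, read 1988 and 1971 against 3238 and 2963 (0.65, adjusted p = 0.163). *Gclm* was nearly level at 4 h, with 0.10. The others were *Nqo1*, sulfiredoxin (*Srxn1*, 0.33), mitochondrial superoxide dismutase (*Sod2*, 0.33), thioredoxin reductase (*Txnrd1*, 0.35) and the cystine carrier *Slc7a11* (0.32). Bright antioxidant genes did not follow: ferritin heavy chain *Fth1* had -0.14 and catalase *Cat* had -0.20 (adjusted p = 0.927 and 0.896). The count of 7 was 3 without the intensity trend, and 4 without DMSO 12 h replicate 1 or without treated 12 h replicate 1.

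The matrix proteases and their inhibitors held *Mmp8* and 4 more members that were higher at an unadjusted p under 0.05, of 23 above the reference, with 0 lower. Over all genes the shares at that p were 3.52% higher and 4.19% lower, and 1.54% and 1.6% without the intensity trend. *Mmp14*, the membrane-bound collagenase activator, read 2572 and 2628 in the controls and 3718 and 4020 after treatment (log2 difference 0.57, adjusted p = 0.215). *Serpinb2*, an inhibitor of plasminogen activators, read 150.7 and 105.2 against 448.6 and 393.4 (1.74, adjusted p = 0.167). Both were higher on each treated array than on each control. Of 25 adhesion genes, 4 were higher and 3 lower at that p, the lower ones being *Gja1*, the connexin 43 gene (440.3 and 481.7 against 245.5 and 210.9, adjusted p = 0.449), *Cdh1*, the E-cadherin gene (465.9 and 329.2 against 300.6 and 234.9, adjusted p = 0.755), and the integrin gene *Itga6* (433.4 and 417.6 against 232.1 and 329.0, adjusted p = 0.808). The higher ones included *Itgam*, the CD11b gene (0.38, adjusted p = 0.686). The 4 higher adhesion genes were 1 without DMSO 12 h replicate 1, 0 without treated 12 h replicate 2 and 0 without the intensity trend, and the 3 lower were 1 without DMSO 12 h replicate 1. The 5 proteases were 3 without DMSO 12 h replicate 2.

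Alternative activation, the program that IL-4 is known to induce, held both genes that passed as lower. Of 21 members above the reference, *Clec10a* and *Retnla* passed, 5 in all were lower at an unadjusted p under 0.05 and 1 was higher, with a median of -0.19. Over all genes 4.19% were lower and 3.52% higher at that p. *Clec10a*, a receptor for galactose-type sugars, read 1099 and 1243 in the controls and 571.2 and 553.0 after treatment (ratio 2.08, log2 difference -1.06 ± 0.14, adjusted p = 0.028). *Retnla*, the RELMα gene, read 5630 and 5683 against 2917 and 3246 (ratio 1.84, -0.88 ± 0.12, adjusted p = 0.0477). In both, each treated array was well below each control. At 4 h the differences were -0.32 and -0.14.

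Among the members that missed the test, *Tgm2*, the tissue transglutaminase gene, read 17303 and 16808 against 12168 and 10447 at its brightest probe set (log2 difference -0.60, adjusted p = 0.165), and the 4 next brightest of its 6 probe sets had differences between -0.49 and -0.69. *Klf4*, a transcription factor of the program, had -0.64 (adjusted p = 0.215) and *Mrc1*, the mannose receptor gene, -0.36 (adjusted p = 0.573). The exception was *Msr1*, a scavenger receptor gene, at 2245 and 2309 against 3116 and 3748 (0.59, adjusted p = 0.385). The calls of *Clec10a* and *Retnla* were lost with each array centred on its median (adjusted p = 0.163 and 0.185), a setting that turned no direction.

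Of 14 C-type lectin receptors above the reference, 3 were higher and 4 lower at an unadjusted p under 0.05, and *Clec10a* and *Mrc1* are in the alternative activation list too. All genes gave 3.52% higher and 4.19% lower at that p, and 1.54% and 1.6% without the intensity trend. *Clec4e*, the gene of Mincle, which senses glycolipids of mycobacteria and fungi, read 7962 and 8449 in the controls and 11808 and 11531 after treatment (log2 difference 0.51, adjusted p = 0.164). *Clec4d* and *Clec5a*, further activating receptors, had 0.26 (adjusted p = 0.733) and 0.43 (adjusted p = 0.732). The lower ones were *Clec10a*, *Mrc1*, *Clec4b1* (-0.34, adjusted p = 0.746) and *Ly75*, the DEC-205 gene (1852 and 1296 against 906.2 and 947.7, adjusted p = 0.456). Of 19 Fc and scavenger receptors, 4 were lower, among them the inhibitory receptor gene *Fcgr2b* (15735 and 16890 against 12173 and 12738, adjusted p = 0.449) and *Mertk* (-0.43, adjusted p = 0.706), and *Msr1* was higher. The list's median was 0.04, and the 4 lower were 0 with each array centred on its median and 0 without the intensity trend. Leaving out 1 array, they were 2 without either DMSO 12 h array and 1 without treated 12 h replicate 2. The 3 higher lectins were 1 without DMSO 12 h replicate 1 or treated 12 h replicate 2.

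At an unadjusted p, some genes of lipid synthesis were higher and some genes of lipid loading and LXR targets were lower, a contrast that was not tested. Of 28 cholesterol and fatty acid synthesis genes, 6 were higher at an unadjusted p under 0.05 and 0 were lower (3.52% and 4.19% of all genes), with a median of 0.11. *Fasn*, fatty acid synthase, read 480.8 and 481.3 in the controls and 721.2 and 642.4 after treatment (log2 difference 0.50, adjusted p = 0.437), and *Scd1*, which makes monounsaturated fatty acids, had 0.38 (adjusted p = 0.614). In vehicle-treated DCs 25 of these 28 genes fell between 4 h and 12 h (2.49% of all genes above the reference did), *Fasn* with a log2 difference of -2.16 (adjusted p = 1.60e-06). At 4 h, 0 of the 28 were higher or lower at that p with treatment, when 2.64% of all genes were higher and 2.33% lower. The count of 6 lay between 1 and 8 over the alternative settings, and was 2 without DMSO 12 h replicate 1.

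Of 18 genes of lipid loading and LXR targets, 0 were higher and 4 were lower at an unadjusted p under 0.05 (3.52% and 4.19% of all genes). *Apoe*, the apolipoprotein E gene, read 17360 and 20864 in the controls and 12611 and 14672 after treatment (log2 difference -0.48, adjusted p = 0.449). *Fabp4*, the fatty acid carrier of adipocytes and macrophages, read 1004 and 1018 against 684.3 and 566.3 (-0.70, adjusted p = 0.489). *Apoc2*, the activator of lipoprotein lipase, had -0.34 (adjusted p = 0.685), and *Plin2*, a coat protein of lipid droplets, -0.24 (adjusted p = 0.808). With each array centred on its median, 2 of the 18 were lower at that p and 1 was higher. The count of lower genes was 2 without DMSO 12 h replicate 2 and 2 without treated 12 h replicate 1.

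**Figure D4:**
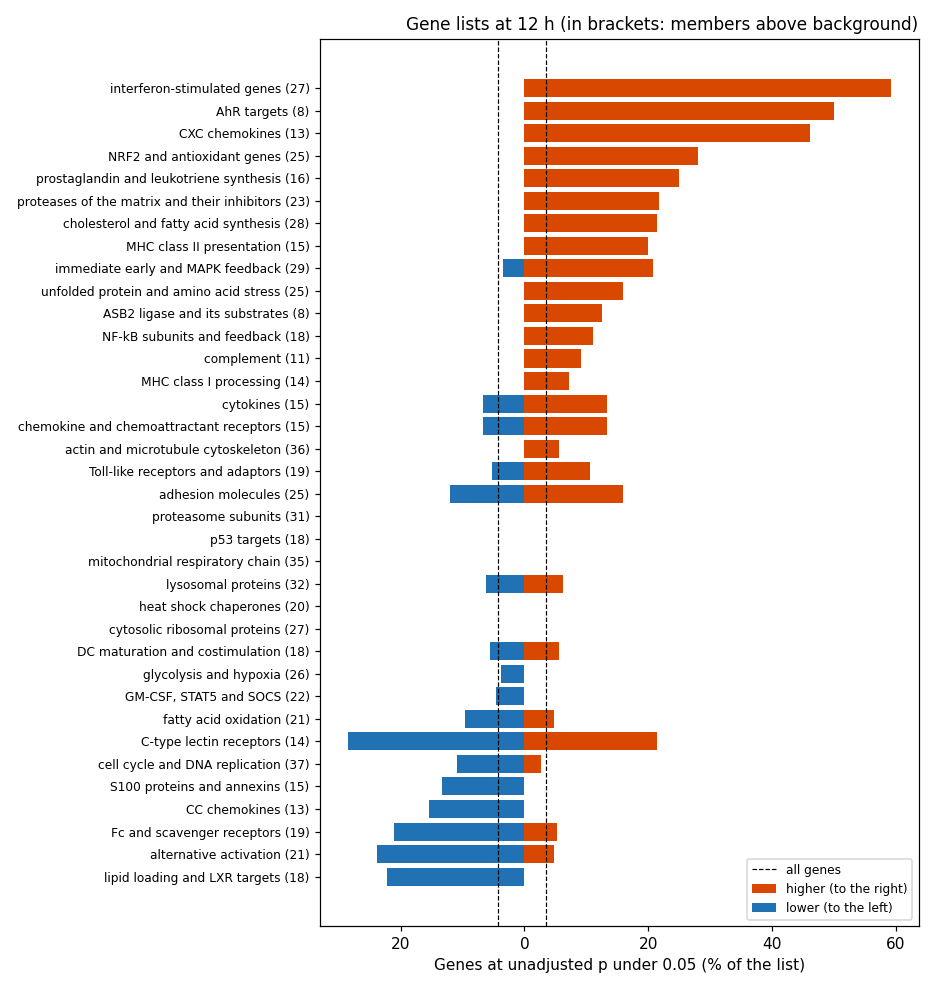
Share of each gene list (y axis, number of members above background in brackets) at an unadjusted p under 0.05 at 12 h (x axis, percent), with higher genes to the right and lower genes to the left, and dashed lines at 3.52% higher and 4.19% lower for all 11104 genes. The interferon-stimulated genes (16 of 27), AhR targets (4 of 8) and CXC chemokines (6 of 13) reach farthest to the right.

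Further groups were described by their leading genes, with counts at an unadjusted p under 0.05 (3.52% higher and 4.19% lower over all genes). Of 16 genes of prostaglandin and leukotriene synthesis, 4 were higher and 0 lower, led by *Pla2g7*, which degrades platelet-activating factor (19940 and 22265 against 26544 and 28970, adjusted p = 0.516), and *Alox5*, the 5-lipoxygenase gene (0.44, adjusted p = 0.742). Of 25 genes of unfolded protein and amino acid stress, 4 were higher and 0 lower, led by the mTOR inhibitor *Ddit4* (0.63, adjusted p = 0.339) and the serine synthesis enzyme *Phgdh* (0.82, adjusted p = 0.505). Of 29 immediate early genes, 6 were higher, among them *Ier3* (0.44) and *Dusp5* (0.42), and *Klf4* alone was lower. Of 37 cell cycle genes, 4 were lower, led by *Hmmr* (-0.90, adjusted p = 0.566) and the ribonucleotide reductase gene *Rrm2* (-0.64, adjusted p = 0.566), and the proliferation marker *Mki67* was higher (0.35, adjusted p = 0.769). These counts leaned on single 12 h arrays. The 4 of prostaglandin synthesis were 2 without treated replicate 1. The 4 of protein stress were 2 without DMSO replicate 1 and 8 without treated replicate 1, and the 6 immediate early genes were 2 without DMSO replicate 2 and 3 without treated replicate 2. The 4 lower cell cycle genes were 7 without DMSO replicate 1 and 2 with each array centred on its median.

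Inflammatory signalling genes were tested in 3 lists, where 3.52% of all genes above the reference were higher and 4.19% lower at an unadjusted p under 0.05. Of 15 cytokine genes, 2 were higher and 1 was lower at an unadjusted p under 0.05: the TGF-β1 gene *Tgfb1* (4424 and 4772 in the controls, 6017 and 5588 after treatment, adjusted p = 0.619), *Il1rn*, and *Tnfsf13b*, the gene of the B cell survival factor BAFF (372.6 and 380.9 against 294.1 and 230.9, adjusted p = 0.808). *Tnf* read 335.9 and 306.8 in the controls and 654.7 and 465.6 after treatment, groups that did not overlap, yet its spread left it short of the test (log2 difference 0.78, adjusted p = 0.849). *Il1b*, the gene of the pyrogen IL-1β, read 11987 and 12569 against 13274 and 11556, and *Il12b*, the p40 subunit that directs T helper responses, 2588 and 2082 against 2190 and 2123, so both overlapped. Of 18 NF-κB genes, the feedback genes *Nfkbiz* (0.43, adjusted p = 0.732) and *Tnip1* (0.29, adjusted p = 0.746) were higher at that p and 0 were lower. Of 19 Toll-like receptors and adaptors, *Irak2*, a kinase of the pathway (0.52, adjusted p = 0.482), and *Tlr8* (0.49, adjusted p = 0.773) were higher, and *Tlr4*, the LPS receptor gene, was lower (1799 and 1664 against 1373 and 1233, adjusted p = 0.566). Both treated arrays were above both controls at 12 of the 19 Toll-like genes and 9 of the 18 NF-κB genes (16.7% of all genes), 16 of 19 and 15 of 18 were positive, and the medians were 0.18 and 0.16. Leaving out 1 array of 12 h at a time gave 1 to 2 higher Toll-like genes, 0 to 3 NF-κB genes and 1 to 3 cytokine genes. The lowest counts came without treated replicate 2, without treated replicate 1, and, for the cytokines, without DMSO replicate 1 or either treated array.

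Among 32 lysosomal genes, 2 were higher and 2 lower at that p, shares near the 3.52% and 4.19% of all genes. *Gpnmb*, a membrane glycoprotein of phagocytes, read 2536 and 2731 in the controls and 3577 and 4056 after treatment (log2 difference 0.53, adjusted p = 0.363), while *Ctse*, the cathepsin E gene, read 7010 and 7699 against 5669 and 5957 (-0.34, adjusted p = 0.582). Of 15 MHC class II presentation genes, 3 were higher and 0 lower, and these were *Cd9*, a tetraspanin gene (0.40), *Marchf1*, the ligase that ubiquitinates MHC class II (0.32), and *H2-Oa*, part of an inhibitor of peptide loading (0.42), none of which is a class II chain that presents peptide. The 3 were 1 without treated 12 h replicate 2. Of 15 S100 and annexin genes, *S100a10* (18246 and 17300 against 13700 and 13587, adjusted p = 0.566) and *S100a13* (-0.23) were lower and 0 were higher, and with each array centred on its median 0 of the 15 were lower.

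Several groups held no member at an unadjusted p under 0.05 in either direction: 31 proteasome subunits, 18 p53 targets, 20 heat shock chaperones, 35 respiratory chain genes and 27 ribosomal protein genes, with medians of 0.00, -0.03, -0.06, -0.12 and -0.13. Yet both treated arrays were below both controls at 17 of the 35 respiratory chain genes and 16 of the 27 ribosomal genes (21.9% of all genes), and 25 and 23 were negative. Without either treated 4 h array, some respiratory chain and ribosomal genes were lower at that p, but the share of all genes that were lower also rose. Centring each array on its median moved the medians of the p53, heat shock, respiratory chain and ribosomal groups to 0.04, 0.02, -0.05 and -0.06, and quantile normalization moved that of the ribosomal genes to 0.01. The centring moved the median of all genes from -0.02 to 0.05. With it, the share of genes at that p went from 3.52% higher and 4.19% lower to 3.96% and 1.58%.

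For the genes of costimulatory molecules, MHC class II, the invariant chain and CD11c, no difference was detectable at the mRNA, and 0 of 6 passed. The differences and their 95% intervals were 0.12 (-0.23 to 0.48) for *Cd40*, -0.23 (-0.66 to 0.20) for *Cd80* and 0.12 (-0.17 to 0.40) for *Cd86*, the costimulatory molecules. They were -0.03 (-0.27 to 0.20) for the MHC class II gene *H2-Ab1*, -0.09 (-0.33 to 0.15) for the invariant chain gene *Cd74*, and 0.03 (-0.19 to 0.25) for *Itgax*, the CD11c gene. Differences within these intervals could not be seen with 2 arrays a group.

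Further genes missed the test by little. The nearest of those named here was *Ear3*, lower after treatment at 5618 and 4679 in the controls against 2963 and 2865 (log2 difference -0.82, adjusted p = 0.0605, limma). *Slc26a2*, a sulfate carrier, read 1196 and 1326 in the controls and 2163 and 2102 after treatment (log2 difference 0.76, adjusted p = 0.0681). *Notch1*, a receptor of cell fate decisions, read 1414 and 1258 against 2288 and 2225 (0.76, adjusted p = 0.0813), and *Acod1*, which makes itaconate in activated macrophages, 1787 and 2052 against 3804 and 3405 (0.91, adjusted p = 0.101). *Car2*, a carbonic anhydrase (0.99, adjusted p = 0.0962), *P2rx5*, an ATP-gated channel (0.84, adjusted p = 0.0826), *Il6st*, the shared receptor chain of the IL-6 family (0.69, adjusted p = 0.101), and *Tfrc*, the transferrin receptor gene (0.60, adjusted p = 0.113), had treated arrays above all controls too. Lower were *Pdgfc*, a growth factor gene (851.1 and 552.3 against 306.2 and 320.2, adjusted p = 0.101), *Mavs*, the adaptor of RNA sensing at mitochondria (1471 and 1744 against 870.4 and 983.0, adjusted p = 0.113), and *Sgpp1*, a phosphatase of sphingosine phosphate (-0.59, adjusted p = 0.165).

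Some probe sets in this range did not speak for their gene. At a dimmer probe set the p38 kinase gene *Mapk14* had 0.88 (adjusted p = 0.113), while its brightest, at 3328 to 3757, had 0.10 (adjusted p = 0.948). *Samhd1*, a dNTP-degrading restriction factor, had -1.19 at one of 5 probe sets and 0.02 at the brightest. *Slc26a2* had 0.42 (adjusted p = 0.456) and *Il6st* 0.54 (adjusted p = 0.239) at their brightest probe sets, the direction of the probe sets above.

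**Figure D5:**
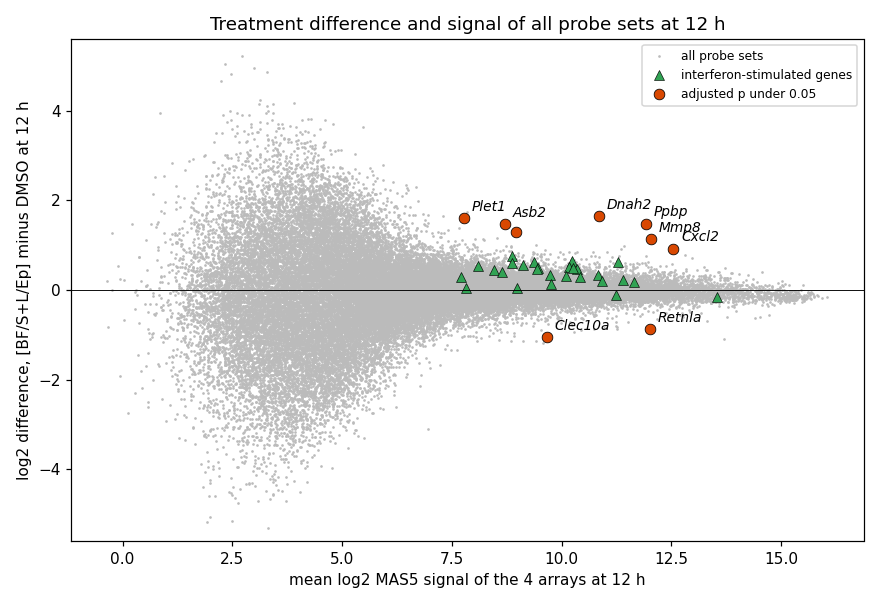
Log2 difference at 12 h (y axis) against the mean log2 signal of the 4 arrays at 12 h (x axis) for all 45037 probe sets in grey, with the 27 interferon-stimulated genes as green triangles and the 9 probe sets with an adjusted p under 0.05 as orange circles. Differences scatter widely where signals are dim, and the interferon-stimulated genes lie mostly just above 0 among bright probe sets.

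By size alone, 66 probe sets were at least 2-fold higher in all 4 treated to control ratios (0.147% of all) and 59 were at least 2-fold lower (0.131%). Nearly all were dim: 57 of the 66 had both control arrays under the reference, and 55 of the 59 had both treated arrays under it. Of the 66, 6 passed the test, and of the 59, 0 passed. One probe set of *H2-T3*, a non-classical MHC class I gene, was an example, at 11.7 and 13.8 in the controls and 132.5 and 186.5 after treatment, at least 1.71-fold higher (adjusted p = 0.163). The gene's brighter probe set went the other way, at 84.1 and 79.7 against 25.8 and 71.6, at least 1.09-fold lower (adjusted p = 0.901), so the gene has no settled direction.

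Markers of other cell types were mostly dim. Of 15 measured neutrophil genes 9 were above the reference, and *Mmp8* alone passed. The defining granule genes *Elane*, *Prtn3* and *Ctsg* were under it, and *S100a8* (2360 and 2292 against 2295 and 1986) and *S100a9* (447.5 and 588.5 against 425.6 and 429.7) were not higher. Log2 differences of the 9 ran from -0.39 to 1.55, 5 positive and 4 negative. Both treated arrays were above both controls at 3 of them and below at 2 (16.7% and 21.9% of all genes). A member other than *Mmp8* had the largest difference, but *Mmp8* alone was higher at an unadjusted p under 0.05. The summed signal of the list was 7415 to 7588 in the controls and 10719 to 10752 after treatment, in which *Mmp8* alone gave 2741 to 2937 and 5975 to 6420. Of the platelet genes *Ppbp* and *Pf4* were bright. *Itga2b* (320.2 and 168.3 against 243.5 and 163.9) and *Vwf* (523.7 and 577.7 against 539.9 and 530.8) overlapped between the groups. Of the 8 platelet genes above the reference, 3 were positive and 5 negative, with log2 differences from -1.49 to 1.47 and a median of -0.07. The summed signal was 21097 to 22007 against 29280 to 30830. Most of that sum was *Pf4* (16662 and 18171 against 22607 and 21446) and *Ppbp* (2405 and 2233 against 6542 and 6306). The part of these cells in the responses of *Mmp8*, *Ppbp* and *Pf4* was not tested. Defining genes of T cells (*Cd3d*, *Cd3e*, *Cd3g*), B cells (*Cd79a*, *Ms4a1*), mast cells (*Mcpt1*, *Fcer1a*) and eosinophils (*Epx*, *Prg2*) were under the reference. The Langerhans cell list, which holds *Cdh1*, summed to 7668 to 8174 in the controls and 6194 to 6362 after treatment. Most of that sum was the *Ctse* signal given above. The plasmacytoid DC list summed to 7475 to 7554 and 5581 to 6050, in which *Klk1b27* read 3169 and 3492 against 1975 and 1647. Of its 6 genes above the reference, 3 were positive and 3 negative. The stromal list summed to 38348 to 41004 and 34510 to 34611, with *Dcn*, *Lum*, *Thy1* and *Sparc* under the reference. The part of these 3 cell types in the lower genes was not tested. The summed macrophage signal was 104203 to 108333 in the controls and 97828 to 106826 after treatment.

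The 12 h response was set against that at 4 h in the same fit. All 9 probe sets called at 12 h had the same sign at 4 h, 6 of them at an unadjusted p under 0.05 (4.97% of all probe sets). Of these 9, 0 passed the adjusted test at 4 h (limma), where 2 probe sets did (0.00444% of all). Those 2 were of *Ahrr* and *Cxcl3*, each with an adjusted p of 0.0133 at 4 h. Their log2 differences were 1.22 and 1.24 at 4 h, against 0.84 and 0.77 at 12 h. The difference between the responses passed at 0 probe sets (limma), with 1647 at an unadjusted p under 0.05 (3.66%). Among named genes, the differences between the responses were 0.61 ± 0.14 for *Mmp8* (adjusted p = 1), -0.74 ± 0.18 for *Retnla* (adjusted p = 1), -0.73 ± 0.20 for *Clec10a* (adjusted p = 1) and 0.16 ± 0.17 for *Cxcl2* (adjusted p = 1). The first 3 were larger at 12 h in size, and none passed over all probe sets.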

How the data were processed

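The 8 Affymetrix mouse arrays, 4 groups of 2, carried BMDC RNA. The intensity values used are the MAS5 signals the authors deposited, not logged, with a trimmed mean of 500 (2% off each end). MAS5 is named in the submitters' processing notes, without a version that could be used here. Scaling each array to one mean hides any overall change in RNA, and detection calls were not used. Of 45101 probe sets, 64 controls were left out. Of the 45037 tested, 34945 have 1 gene symbol in the platform annotation, 932 have several, 9160 have none, and 34741 matched RefSeq (GRCm38.p6).

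The 8 arrays' log2 signals were modelled by 4 group means in limma 3.58.1 (R 4.3.3), with an intensity trend in the moderation, 4 residual and 8.833 prior degrees of freedom. The fit was tested on simulated data. The replicate numbers did not pair the arrays. The number of arrays limits the precision: the 95% interval reached a median of 0.37 (log2) to either side over genes above the reference. A group was under the background reference when both arrays were under their own, and a fold against it is given as a bound. Ratios are of mean signals.

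Named were probe sets with an adjusted p under 0.05, the 15 nearest misses in each direction with a ratio of at least 1.5 and groups that did not overlap, the 10 largest 2-fold changes in each direction, leading and defining members of the gene lists, the surface markers and the cell type markers. The text gives a part of these. The brightest probe set stands for a gene of a list. Members, lists, promoter motifs and tests were chosen with earlier results of these data known, and the lists were written from general knowledge. Lists were described by counts and medians, with no set test. Alternatives were other normalizations, an offset of 50, filters, moderation, a replicate block, only the 12 h arrays and each array left out. Promoter windows (250 bases before to 50 after the start) are from RefSeq. Figures were drawn with matplotlib 3.10.9.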

Additional observations from a re-analysis of the deposited data

How the results depend on the processing

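The 7 higher probe sets at 12 h were 4 with an offset of 50, 0 when the moderation had no intensity trend, 3 with only the 12 h arrays, and 0 to 7 with 1 array left out. The 2 lower ones were 0 with each array centred on its median, with an offset of 50, without the trend, with robust moderation and with only the 12 h arrays, and 0 to 5 with 1 array left out. All 8 arrays enter the estimate of the spread, so leaving out an array of 4 h could change these counts too. Such a fit keeps only 1 array in a group, and why its counts shifted was not tested. *Mmp8* passed in 14 of 16 settings, *Dnah2* in 13, *Ppbp* in 11, *Plet1* in 9, *Asb2* and *Cxcl2* in 7, *Clec10a* in 5 and *Retnla* in 4. No named gene that passed changed direction. The difference between the responses at 12 h and 4 h passed at 0 to 1 probe sets with 1 array left out, the 1 without [BF/S+L/Ep] 4 h replicate 2. That difference could not be fitted with only the 12 h arrays. With the replicate number as a block, 9 probe sets passed, 8 of them shared, and *Rps10* took the place of *Retnla*. The deviations of same-numbered arrays correlated at -0.029 to 0.109, so the number was not taken as a pairing. The 2-fold counts of 66 and 59 were 18 and 13 with an offset of 50, 722 and 1258 without the background filter, 229 and 207 on the ratio of means alone, and 240 to 433 and 246 to 397 with 1 array left out. Chosen after seeing the data, the counts of the lists were recomputed in each setting. They ranged from 4 to 7 for the CXC chemokines, 3 to 4 for AhR targets, 3 to 7 for NRF2 genes, 4 to 7 for alternative activation, 1 to 5 for lipid loading and 0 to 4 for Fc and scavenger receptors. Without the intensity trend the shares of all genes at an unadjusted p under 0.05 fell too, to 1.54% higher and 1.6% lower. The cause of these shifts was not tested.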
